A study of Mus musculus with 6 samples.

Results

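Apart from Sox2, 9 genes of the Sox family of transcription factors were examined in Zscan10-null and floxed mouse embryonic stem (ES) cells. They were taken by symbol from the deposited tables, in which each member (Sox3, Sox4, Sox11, Sox12, Sox13, Sox15, Sox17, Sox18 and Sox21) had 1 of the 23244 loci. Sox15 rose 1.79-fold in null cells and was the most abundant of the 9 there, while Sox11 fell to 0.430, Sox21 to 0.532 and Sox4 to 0.811 times the control mean. Sox12 and Sox13 did not pass the test, and Sox3, Sox17 and Sox18 were near the limit of detection in both groups. The summed FPKM of the 9 genes, as deposited, overlapped between the groups.

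Sox proteins share the HMG box of the testis-determining factor Sry, a DNA-binding domain that enters the minor groove, recognises a short AT-rich core and bends the DNA. Most act with a partner factor, and in ES cells the best-known pair is Sox2 with the POU factor Oct4, encoded by Pou5f1. Relatives of Sox2 are sorted into groups by the similarity of their HMG boxes, and members of one group often have overlapping roles in the embryo, from neural tube and endoderm to blood vessels and muscle.

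RNA sequencing of total RNA depleted of ribosomal RNA gave 6 libraries. The null group held 3 libraries from subcloned Zscan10-null ES cells, a constitutive knockout. The control group held 3 libraries from ES cells with floxed Zscan10 and no deletion, from a Cre-loxP line in which the gene can be deleted on induction. The control titles carry the mark -Tx, whose meaning the labels do not give, so a difference of treatment cannot be told apart from genotype, and because the null cells were subcloned, clone and genotype cannot be told apart either. The labels do not say that replicates were separate cultures, so p-values measure only the spread between these libraries, which may be technical.

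Values are FPKM, fragments scaled to transcript length and library size, a unit that corrects for length and lets levels of different genes be compared. Relative depth, read from the steps between low values, was 0.986 to 1.09 times that of control replicate 1. Zscan10, a SCAN-domain zinc-finger gene, was at 5.49, 4.43 and 5.47 FPKM in null libraries, against 44.2, 43.0 and 41.9 FPKM in control libraries. All 15 genes of an ES cell marker list, Pou5f1, Nanog and Sox2 among them, averaged at least 1 FPKM. Of these 15, 1 passed the limma test described with the members as higher (Tbx3) and 7 as lower, at a median log2 fold change of -0.17. Of all tested loci, 12.8% passed as higher and 12.4% as lower. Among the 7, Nr0b1 was at 39.9 FPKM in null and 71.1 FPKM in control libraries, Prdm14 at 5.94 and 10.7 FPKM and Klf2 at 97.0 and 122.9 FPKM, while Pou5f1, Nanog and Sox2 did not pass. The count of 8 was 5 without control replicate 1. In bulk RNA, fewer cells expressing a gene and less RNA per cell cannot be told apart.

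The sequences just before the starts of 5 members are shown because 4 of these genes changed and the other, Sox12, did not pass although it belongs to the same group as Sox4 and Sox11. RefSeq's table for GRCm38.p6 (mm10) matched 6 of the 9 members: Sox4, Sox11, Sox12, Sox13, Sox15 and Sox21. Each run is the 250 bases upstream of the annotated start, 5′ to 3′ on the gene's strand, with capitals marking any match on either strand to the SOX core (ACAATG or ACAAAG), the octamer bound by POU factors (ATGCAAAT), the CCAAT box (CCAAT), the GC box (GGGCGG) or the TATA box (TATAAA). Sox15 lies at chr11:69654787-69655036, plus strand. Sox11 lies at chr12:27342719-27342968, minus strand. Sox21 lies at chr14:118237031-118237280, minus strand. Sox4 lies at chr13:28953700-28953949, minus strand. Sox12 lies at chr2:152398047-152398296, minus strand.
Sox15: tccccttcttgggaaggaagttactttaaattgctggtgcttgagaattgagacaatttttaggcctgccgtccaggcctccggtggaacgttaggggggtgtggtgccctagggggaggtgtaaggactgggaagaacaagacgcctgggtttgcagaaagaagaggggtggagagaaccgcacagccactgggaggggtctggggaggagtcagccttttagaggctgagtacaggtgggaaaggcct
Sox11: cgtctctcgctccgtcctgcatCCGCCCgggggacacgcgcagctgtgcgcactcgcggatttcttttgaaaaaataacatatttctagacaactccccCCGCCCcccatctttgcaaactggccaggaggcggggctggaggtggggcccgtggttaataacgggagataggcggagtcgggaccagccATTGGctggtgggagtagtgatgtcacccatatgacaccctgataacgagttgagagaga
Sox21: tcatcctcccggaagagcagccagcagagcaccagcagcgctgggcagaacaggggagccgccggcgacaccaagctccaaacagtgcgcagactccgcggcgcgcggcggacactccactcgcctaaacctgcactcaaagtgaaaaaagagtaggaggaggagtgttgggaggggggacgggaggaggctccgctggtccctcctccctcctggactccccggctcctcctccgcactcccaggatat
Sox4: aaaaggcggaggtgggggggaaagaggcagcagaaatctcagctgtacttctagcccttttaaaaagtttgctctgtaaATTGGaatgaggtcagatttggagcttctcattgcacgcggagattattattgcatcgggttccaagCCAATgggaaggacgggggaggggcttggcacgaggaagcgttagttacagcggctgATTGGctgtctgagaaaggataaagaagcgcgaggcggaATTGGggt
Sox12: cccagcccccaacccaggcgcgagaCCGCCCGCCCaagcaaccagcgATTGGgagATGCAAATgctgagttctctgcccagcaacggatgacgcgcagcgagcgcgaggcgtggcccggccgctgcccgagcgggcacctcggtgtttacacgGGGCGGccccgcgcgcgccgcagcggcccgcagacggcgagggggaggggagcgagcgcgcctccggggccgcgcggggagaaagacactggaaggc

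None of the 6 windows searched held the SOX core, which 25.2% of all 32851 RefSeq promoter windows of this length held. Of the 6, Sox12 alone held the octamer, with its nearest base 188 bases before the start, and 1.60% of all windows held it. Sox4 had 4 CCAAT boxes, Sox11 and Sox12 had 1 each, and 33.8% of all windows held at least 1. GC boxes were found 2 times in Sox11 and 3 times in Sox12, where 2 of them overlap each other, and 32.7% of all windows held at least 1. The TATA box, present in 12.4% of all windows, was in none of the 6. Sox15, Sox21 and Sox13 had no match to any of these letters. The Sox15 window was also the poorest of the 6 in CpG, with 5 CpG dinucleotides, against 11 in Sox4, 17 each in Sox11 and Sox21, 31 in Sox13 and 35 in Sox12, and a median of 6 over all windows. GENCODE M21 places the starts of Sox15 and Sox11 farther downstream, at positions 69655314 and 27342574, so their windows depend on the annotation. The Sox13 window, chr1:133424213-133424462 on the minus strand, lies mostly inside the Sox13 locus given below, which runs up to position 133424459. Its matches and CpG count therefore do not describe the bases before that locus. These matches describe letters and say nothing of binding.

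Of the 9 members, 6 had a mean of at least 1 FPKM over the 6 libraries and were tested, and 3 (Sox3, Sox17 and Sox18) lay under it. Among the 6 tested, 4 passed an adjusted p of 0.05 by limma over all loci, 1 higher and 3 lower, where 25.2% of the 11480 loci tested passed, 12.8% higher and 12.4% lower. The same 4 members had groups that did not overlap, as had 44.1% of all tested loci. The median absolute log2 fold change was 0.48 over the 6 tested members and 0.14 over all tested loci.

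**Figure D1:**
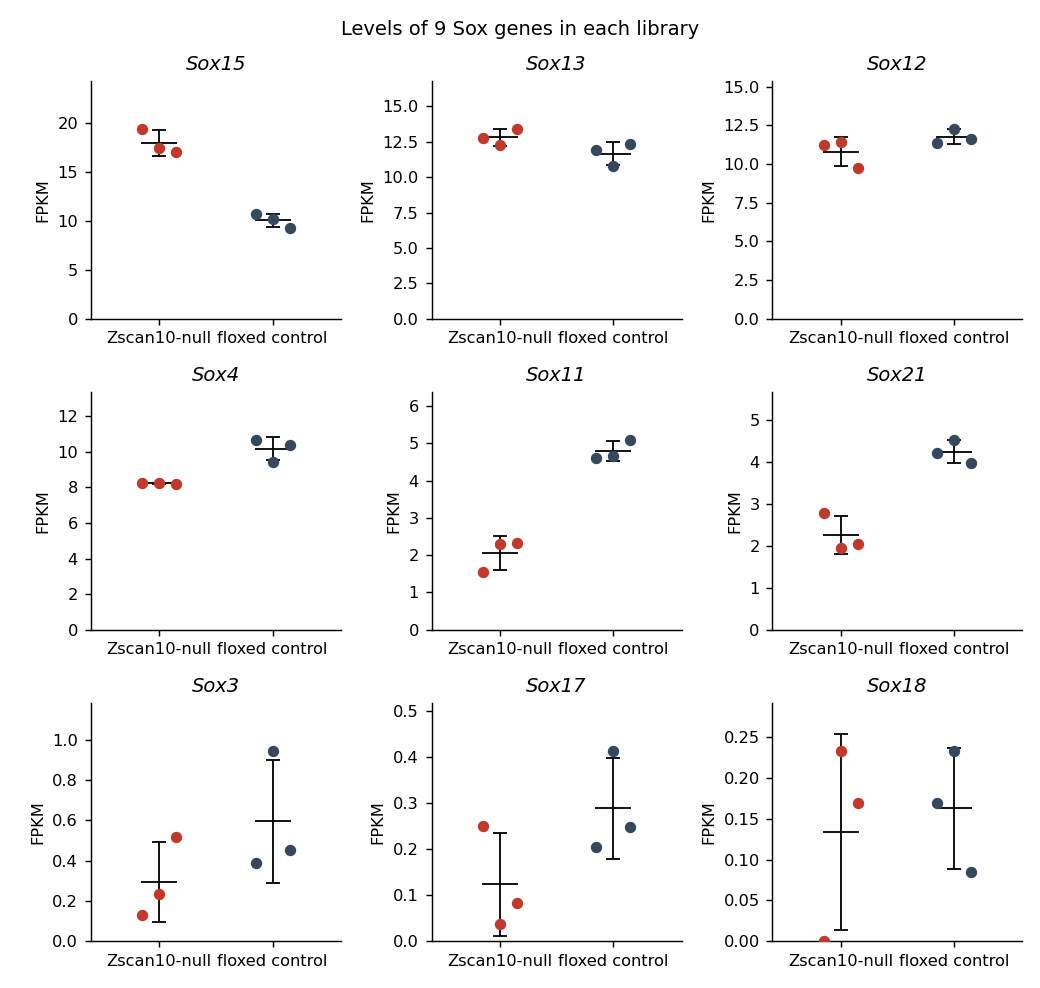
FPKM of each of the 9 Sox genes (vertical axes from 0) in Zscan10-null (red) and floxed control (blue) libraries; each point is 1 library, the horizontal bar the mean and the whiskers the SD of 3 libraries. For Sox15 all null points (17.0 to 19.5) lie above all control points (9.31 to 10.7), for Sox4, Sox11 and Sox21 all lie below, and for the other genes the groups overlap.

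Sox15, the only member of group G, is most closely related to the group of Sox2, binds DNA together with Oct4 in ES cells and is known from muscle precursors and placental giant cells. The locus, chr11:69655037-69656727 on the plus strand, was at 19.5, 17.4 and 17.0 FPKM in null libraries, against 10.7, 10.2 and 9.31 FPKM in control libraries. Every null library lay above every control library. The means were 18.0 ± 1.31 FPKM in null and 10.1 ± 0.696 FPKM in control libraries (SD, n = 3 each), a log2 fold change of 0.78 ± 0.07 (SE, limma adjusted p = 8.15e-04). The rise was larger than that of 98.6% of tested loci. Permuting the 6 libraries exactly, two-sided, gave p = 0.1 for Sox15, Sox4, Sox11 and Sox21 alike, which is the lowest p possible with 3 libraries against 3.

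Times depth, the 6 values of Sox15 stood in the proportions of the whole numbers 149, 148 and 132 in null and 83, 86 and 72 in control libraries, which were taken as fragments. For all 9 members such a smallest set of whole numbers was found with no library deviating from it by over 0.00346. The Sox15 sums, 429 fragments in null and 241 in control libraries, had exact Poisson 95% intervals of 389 to 472 and 212 to 273, which cover counting error only. Sox15 lies on chromosome 11, where the median log2 fold change of 939 tested loci was -0.12. Relative to that median its log2 fold change was 0.90. Of the 21 tested loci within 250 kb of Sox15, a window chosen after values were seen, 1 was higher and 2 were lower, with a median of -0.02. The last 31 bases of Sox15 overlap Mpdu1 on the other strand, a gene needed for dolichol-linked sugar use, which was at 78.8 ± 3.82 FPKM in null and 81.6 ± 1.57 FPKM in control libraries (limma adjusted p = 0.441). The sources used here do not say whether counting used strand, so fragments over those bases cannot be told apart.

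Sox4, Sox11 and Sox12 form group C, transcriptional activators expressed in neural and mesenchymal progenitors and known to substitute for one another in part. Sox11, the strongest activator of the group in reporter assays, lies at chr12:27334268-27342718 on the minus strand and was at 1.54, 2.31 and 2.32 FPKM in null libraries, against 4.60, 4.66 and 5.10 FPKM in control libraries. All null values lay under the lowest control value, with null replicate 1 the lowest of all. The means were 2.06 ± 0.446 FPKM in null and 4.79 ± 0.272 FPKM in control libraries, with a log2 fold change of -0.93 and an SE of 0.12 (limma adjusted p = 0.00234). Since 1 was added before taking logs, this understates the ratio of the means, which was 0.430. With a pseudocount of 0.1 the log2 fold change was -1.20. Only 0.732% of tested loci had a lower log2 fold change than Sox11. The values corresponded to 105, 174 and 160 fragments in null and 317, 350 and 350 fragments in control libraries.

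Sox4, needed for heart outflow, lymphocyte and neuronal development, lies at chr13:28948919-28953699 on the minus strand and was at 8.26, 8.25 and 8.20 FPKM in null libraries, against 10.7, 9.44 and 10.4 FPKM in control libraries. The null values were closely spaced and all lay under the control values. On the log2 scale the difference was -0.27 ± 0.06 (SE, limma adjusted p = 0.0191). This call did not hold in 4 of the 6 fits that left out 1 library: the adjusted p was 0.0505 without null replicate 2, 0.0540 without null replicate 3, 0.0717 without control replicate 1 and 0.0644 without control replicate 3. The values stood in the proportions of the whole numbers 187, 207 and 188 in null and 245, 236 and 237 in control libraries. Their scale is not settled for this gene, since an estimate from FPKM, transcript length and library size gave means of 301 fragments in null and 372 in control libraries.

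Sox12, the weakest activator of group C in reporter assays and dispensable in mouse development, lies at chr2:152393611-152398046 and was at 11.2, 11.4 and 9.74 FPKM in null libraries, against 11.4, 12.3 and 11.6 FPKM in control libraries. The groups overlapped. The log2 fold change was -0.11 with a 95% interval of -0.28 to 0.05 (limma adjusted p = 0.282), so a fall of the size seen for Sox11 lies outside the interval. The balance within group C shifted: Sox11 stood at 13.8%, 20.2% and 23.8% of the Sox12 level in null libraries, against 40.4%, 37.9% and 44.0% in control libraries. The summed FPKM of the 3 group C genes was 21.03, 22.00 and 20.3 in null libraries and 26.7, 26.4 and 27.1 in control libraries. Identical runs between transcripts of different Sox genes were longest between Sox4 and Sox11, at 48 bases, and 29 to 45 bases at most for the other members. The sources used here do not give the read length, and sharing of reads over such runs was not tested. Transcripts annotated over Sox4 (Gm26735 and Gm46405), Sox21 (Gm4675) and Sox17 (Gm37587) were not analysed here, and their fragments cannot be told apart from those of the Sox genes where they overlap.

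Sox21 and Sox3 are relatives of Sox2 in group B. Sox21, a repressor that opposes the group's activators in neural progenitors and is a known target of Sox2 in the early embryo, lies at chr14:118233233-118237030 on the minus strand and was at 2.77, 1.95 and 2.04 FPKM in null libraries, against 4.20, 4.53 and 3.98 FPKM in control libraries. The groups did not overlap, and the highest null library, replicate 1, was the one in which Sox11 was lowest. The means were 2.25 ± 0.451 FPKM in null and 4.24 ± 0.275 FPKM in control libraries, with a log2 fold change of -0.69 and an SE of 0.11 (limma adjusted p = 0.00519). The values corresponded to 82, 64 and 61 fragments in null and 126, 148 and 119 fragments in control libraries. Of the 4 tested loci within 250 kb of Sox21, 0 were higher and 1 was lower.

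Sox3, an X-linked activator of neural and pituitary development that can stand in for Sox2 when its level is raised in ES cells, lies at chrX:60891366-60893430 and was at 0.131, 0.236 and 0.516 FPKM in null libraries, against 0.387, 0.946 and 0.453 FPKM in control libraries. The groups overlapped. These values rested on 2, 4 and 8 fragments in null and 6, 16 and 7 fragments in control libraries. In a fit with no FPKM minimum, 13.9% of 18476 loci passed, 7.31% higher and 6.54% lower, and the groups of 33.2% did not overlap. Of Sox3, Sox17 and Sox18, 0 passed there and 0 had groups that did not overlap. The log2 fold change of Sox3 was -0.30 with a 95% interval of -0.67 to 0.08 (limma adjusted p = 0.278).

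Sox13 belongs to group D, whose proteins lack a transactivation domain of their own, and is known from T cell and neural development. Its locus, chr1:133382300-133424459, was at 12.7, 12.3 and 13.4 FPKM in null libraries, against 11.9, 10.8 and 12.3 FPKM in control libraries. The lowest null and the highest control library overlapped. The log2 fold change was 0.13 with a 95% interval of -0.03 to 0.28 (limma adjusted p = 0.201). Fragments were 349, 373 and 373 in null and 331, 326 and 341 in control libraries. Of the 9 genes only Sox12, with 1177 in null and 1283 in control libraries, had higher whole numbers in both groups.

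Sox17 and Sox18, in group F, direct endoderm formation and the development of blood and lymph vessels, and lie at chr1:4490928-4497426 and chr2:181669837-181671640. Sox17 was at 0.249, 0.0375 and 0.0820 FPKM in null libraries, against 0.205, 0.413 and 0.247 FPKM in control libraries, or 6, 1 and 2 fragments against 5, 11 and 6. Null replicate 1 lay among the controls. Without the minimum its limma adjusted p was 0.206. Sox18 was listed at 0 in null replicate 1, at 0.233 FPKM in null replicate 2 and at 0.170 FPKM in null replicate 3, against 0.170, 0.234 and 0.0852 FPKM in control libraries. That is 0, 3 and 2 fragments in null and 2, 3 and 1 in control libraries, and the limma adjusted p without the minimum was 0.810. With a pseudocount of 0.1 and no minimum, an alternative chosen after seeing the data, neither Sox3, Sox17 nor Sox18 passed, at limma adjusted p-values of 0.261, 0.202 and 0.730. None of the 3 genes passed on its own at this depth, and all 3 rest on few fragments. Summed fragments were 14 in null (exact Poisson 95% interval 7.65 to 23.5) and 29 in control libraries (19.4 to 41.6) for Sox3, and 9 in null (4.12 to 17.1) and 22 in control libraries (13.8 to 33.3) for Sox17. These intervals cover counting error only, not the spread between libraries. The summed level of Sox17 and Sox18 was 0.249, 0.270 and 0.252 FPKM in null libraries, against 0.374, 0.647 and 0.332 FPKM in control libraries. In this sum, which was not tested, every null library lay under every control library. Null replicate 1 entered it with 6 fragments of Sox17 and 0 of Sox18, and neither gene separated the groups alone. Of single loci above 0 in any library, 33.2% had groups that did not overlap.

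**Figure D2:**
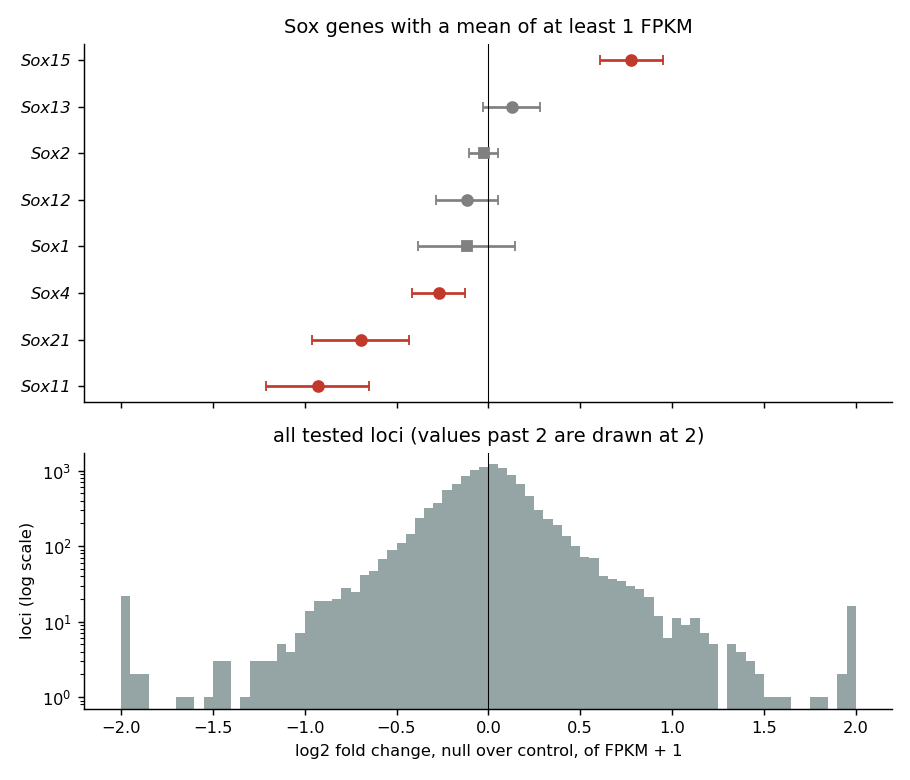
Upper panel: log2 fold change of FPKM + 1, null over control, with 95% intervals for the 8 Sox genes tested (circles, members; squares, Sox2 and Sox1; red, adjusted p at most 0.05). Lower panel: number of tested loci (log scale) by log2 fold change; Sox15 at 0.78 and Sox11 at -0.93 lie in the tails and Sox2 at -0.03 at the centre.

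The order of the levels differed between the groups. In null libraries the order was Sox15, Sox13, Sox12, Sox4, Sox21, Sox11, Sox3, Sox18 and Sox17. The ranges of neighbours did not meet for any of the first 4 steps, from Sox15 down to Sox21, while Sox21 and Sox11 overlapped, as did Sox3, Sox18 and Sox17. In control libraries the order was Sox12, Sox13, Sox4, Sox15, Sox11, Sox21, Sox3, Sox17 and Sox18. There Sox12 and Sox13 were not separated, nor were Sox4 and Sox15, whereas Sox15 and Sox11 were, and Sox11 lay above Sox21 in every library.

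The rise of Sox15 and the falls of Sox11, Sox21 and Sox4 left the summed level of the 9 genes close in the groups. The sum was 56.4, 54.2 and 53.5 FPKM in null libraries, against 54.2, 53.5 and 53.5 FPKM in control libraries. Sox15 made up 32.8% ± 1.47 of that sum in null and 18.7% ± 1.2 in control libraries (SD, n = 3 each). Sox11 made up 3.78% ± 0.903 in null and 8.91% ± 0.553 in control libraries. Sox2 alone was at 268 ± 7.56 FPKM in null and 272 ± 3.42 FPKM in control libraries (limma adjusted p = 0.617). The 9 genes together reached 20.4%, 20.5% and 20.3% of the Sox2 level in null and 19.9%, 19.9% and 19.4% in control libraries. Unlike the FPKM sum, this share did not overlap between the groups. Sox15 stood at 6.70% ± 0.296 of the Sox2 level in null and 3.69% ± 0.280 in control libraries. The FPKM of all loci summed to 664555 to 678200 in null and 685905 to 699401 in control libraries. The sum of the 9 genes was not rescaled to these totals, so its overlap holds only for the values as deposited.

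**Figure D3:**
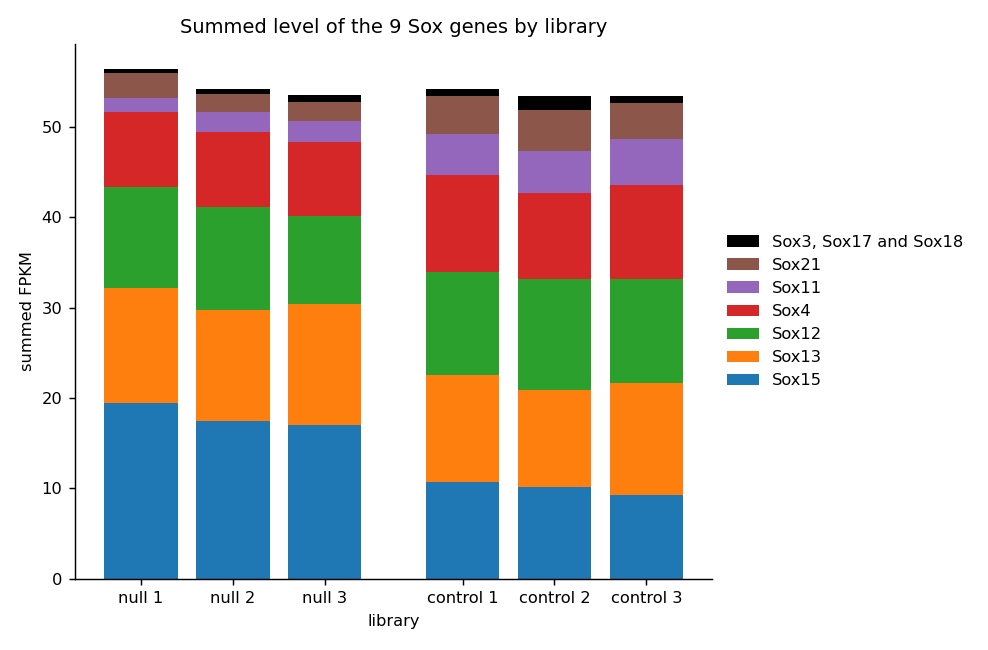
Summed FPKM of the 9 Sox genes (vertical axis, from 0) in each null and control library, stacked by gene. The bars reach 53.5 to 56.4 FPKM in null and 53.5 to 54.2 FPKM in control libraries, with a larger Sox15 segment at the bottom of the null bars.

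The 11 Sox genes outside the 9, counted with Sry, included 9 that averaged under 1 FPKM. The others were Sox2 and Sox1, a neural relative of Sox2, at 1.25 ± 0.248 FPKM in null and 1.44 ± 0.0809 FPKM in control libraries (limma adjusted p = 0.472). Sry and Sox14 were listed at 0 in every library. Sox7, the remaining group F gene, was at 0.436, 0.0358 and 0.0392 FPKM in null libraries, against 0.391, 0.718 and 1.06 FPKM in control libraries, or 11, 1 and 1 fragments against 10, 20 and 27. As for Sox17, null replicate 1 lay among the controls, and Sox7 did not pass without the minimum (limma adjusted p = 0.0891).

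The genes with profiles most like the changed members were found by the root mean square difference of log2(FPKM + 1), centred on each gene's own mean, among 10503 named protein-coding loci over the 6 libraries. The measure follows the group difference as well as the spread within groups. For Sox15 they were Tbx3, a T-box factor of naive ES cells (difference 0.0395, 26.9 ± 2.58 FPKM in null and 14.9 ± 0.519 FPKM in control libraries), and Acad11, an acyl-CoA dehydrogenase (0.0400). For Sox11 they were the kinase gene Pak1 (0.0777) and the Nodal inhibitor Lefty1 (0.0893), for Sox21 the fatty acid transporter Slc27a2 (0.0352) and the actin gene Actg1 (0.0602), and for Sox4 the Rab regulator Tbc1d10a (0.0255) and the adaptor gene She (0.0255).

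Genes tied to the members by role were counted in lists, beside the 12.8% of all tested loci that rose and the 12.4% that fell. Of 14 genes with a known or proposed Oct-Sox element, all tested, 1 rose and 4 fell, with a median log2 fold change of 0.00. The riser was Fbxo15, an F-box gene of ES cells, at 294 FPKM in null and 200.3 FPKM in control libraries (limma adjusted p = 3.39e-04). Lefty1 fell to 32.2 FPKM in null libraries, against 57.0 FPKM in control libraries, and Spp1, encoding osteopontin, to 163 against 244 FPKM, while the Oct-Sox targets Fgf4, Utf1 and Nanog did not pass (limma adjusted p = 0.0916, 0.826 and 0.245). Of 23 tested partner factors and co-regulators of Sox proteins, 5 rose and 7 fell, with a median of -0.00. Nr0b1, a nuclear receptor that binds Oct4, fell (limma adjusted p = 5.37e-04), and Sall1 fell to 42.9 FPKM in null libraries, against 56.4 FPKM in control libraries. Ube2s rose to 725 FPKM in null libraries, against 565 FPKM in control libraries (limma adjusted p = 9.48e-04). Pou3f1, a POU factor of epiblast and neural cells, rose to 3.86 against 2.49 FPKM (limma adjusted p = 0.0181). Another POU factor gene of the list, Pou6f1, fell to 0.994 against 1.99 FPKM (limma adjusted p = 0.00918).

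Beside the falls of Sox11, Sox21 and Sox4, 0 of 11 tested neural genes rose and 5 fell, with a median log2 fold change of -0.24. Of all tested loci, 12.8% rose and 12.4% fell. Nefl, a neurofilament gene, was at 2.64 ± 0.252 FPKM in null and 9.42 ± 0.508 FPKM in control libraries (limma adjusted p = 8.11e-05), and Tubb3, a neuronal tubulin and known Sox11 target, at 51.4 ± 5.59 and 67.1 ± 5.25 FPKM (limma adjusted p = 0.0202). The count of falls was 3 with the replicate number as a block and without null replicate 3, control replicate 2 or control replicate 3, and 2 without control replicate 1. The summed level of all 21 neural genes was 171 to 201 FPKM in null and 230 to 240 FPKM in control libraries. Tubb3 and Stmn2, the latter at 67.8 FPKM in null and 87.5 FPKM in control libraries, made up the largest parts of that sum. The next most abundant, Otx2 and Zic2, did not pass (limma adjusted p = 0.619 and 0.317), nor did Nes (0.564). Neurog2, Dcx and Pou3f2 averaged under 0.1 FPKM in both groups. The part of neural-marker expression in the Sox values was not tested.

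Group C genes are also expressed in mesenchymal cells, and fibroblast markers, such as feeder cells carry, moved in both directions. The 14 listed summed to 10.9 to 18.4 FPKM in null and 19.8 to 23.6 FPKM in control libraries. Of 6 tested, 1 was higher and 2 were lower, where 12.8% of all tested loci were higher and 12.4% lower. Thy1 was the higher gene, at 2.98 FPKM in null and 1.65 FPKM in control libraries. Acta2, at 1.73 and 3.93 FPKM, and Tagln, at 4.86 and 8.80 FPKM, were the lower genes. This count of 3 was 1 with the replicate number as a block, 2 without control replicate 2 and 1 without any other single library. The collagen genes Col1a1 and Col1a2 lay under the minimum and were named after their values were seen. They were at 0.0861 ± 0.0281 and 0.0776 ± 0.0311 FPKM in null libraries, against 0.738 ± 0.132 and 1.13 ± 0.198 FPKM in control libraries. Their groups did not overlap, as for 33.2% of the 18476 loci above 0 in any library. Col3a1 and Pdgfrb, also under the minimum, were not lower, at 0.395 and 0.428 FPKM in null and 0.363 and 0.322 FPKM in control libraries. The part of fibroblast markers in the Sox values was not tested.

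Beside Sox17 and Sox7, 10 endoderm genes were tested, of which 1 was higher and 6 were lower, at a median of -0.63. Of all tested loci, 12.8% were higher and 12.4% lower, which is the background for each list here. Of the 23 endoderm genes listed, 13 lay under the minimum, Foxa2 at a mean of 0.0840 FPKM in null and 0.141 FPKM in control libraries. The summed endoderm level was 177 to 205 FPKM in null and 228 to 242 FPKM in control libraries, and its part in the Sox17 values was not tested. The falls were of basement membrane genes and Cubn, while Gata4, an endoderm regulator, was at 1.80 ± 0.162 FPKM in null and 1.65 ± 0.137 FPKM in control libraries. Cubn, at 0.609 FPKM in null and 1.68 FPKM in control libraries, reached the minimum only through the control libraries. The higher gene was Eomes, at 4.25 FPKM in null and 1.37 FPKM in control libraries, which is counted in the trophoblast list as well. Beside Sox18, 5 endothelial genes were tested, of which 1 was higher and 1 lower, with 10 of 15 genes, Cdh5, Flt1 and Tie1 among them, under the minimum. Beside Sox15, 9 trophoblast genes were tested, of which 5 were higher and 1 was lower, at a median of 0.49. Of the higher ones, Gcm1, Hand1 and Esx1 averaged 0.190, 0.577 and 0.459 FPKM in control libraries. They reached the minimum only through the null libraries, which favours higher genes in this count and median. With a minimum of 5 FPKM, 1 of 3 tested passed, as higher. Hand1, which acts with Sox15 in giant cells, was at 1.79 ± 0.0847 FPKM in null and 0.577 ± 0.127 FPKM in control libraries (limma adjusted p = 0.00206), and Prl3d1, a giant cell hormone gene regulated by them, was listed at 0 in every library. The summed trophoblast level was 64.8 to 79.2 FPKM in null and 58.6 to 63.5 FPKM in control libraries, with Cdx2 and Elf5 under the minimum, and its part in the Sox15 values was not tested. Of 3 muscle genes tested, Mylpf, a myosin light chain of fast fibres, rose to 289 FPKM in null, against 111 FPKM in control libraries. Des, at 5.76 ± 0.589 FPKM in null and 4.42 ± 0.573 FPKM in control libraries, did not pass (limma adjusted p = 0.0602). The count of higher muscle genes, 1, was 2 with quantile normalization. Foxk1, a Sox15 target in muscle precursors, was at 4.09 ± 0.711 FPKM in null and 4.76 ± 0.242 FPKM in control libraries (limma adjusted p = 0.244), and Myf5 was listed at 0 in every library.

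**Figure D4:**
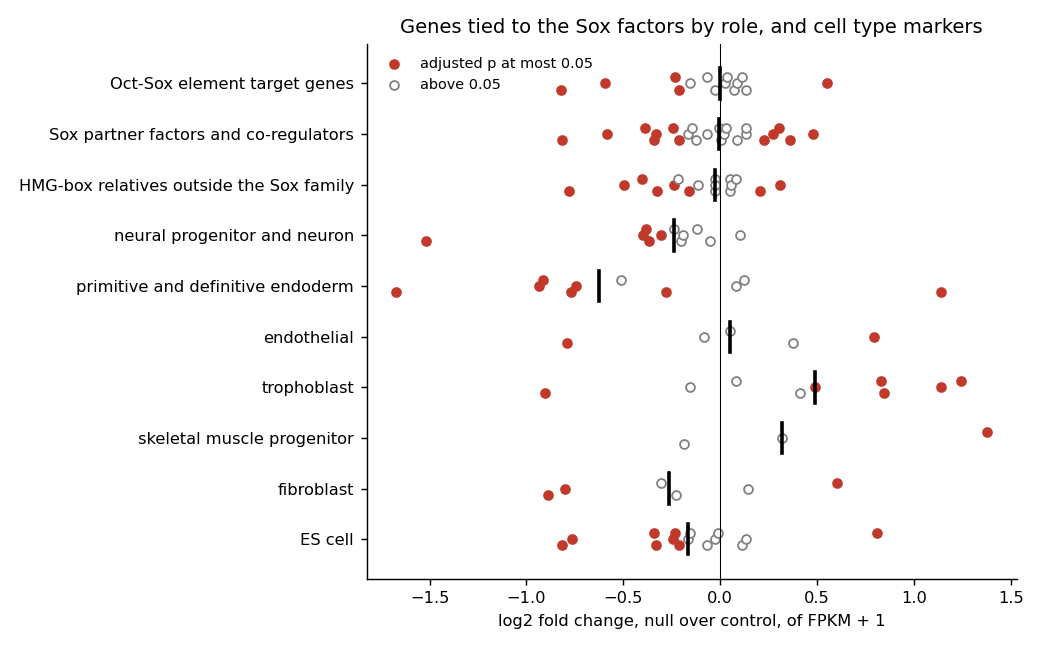
Log2 fold change of FPKM + 1, null over control, for each tested gene of 10 lists; red points passed an adjusted p of 0.05, open points did not, and the black bar is the list median. The neural and endoderm medians lie at -0.24 and -0.63, the trophoblast median at 0.49 and the Oct-Sox target median at 0.00.

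**Figure D5:**
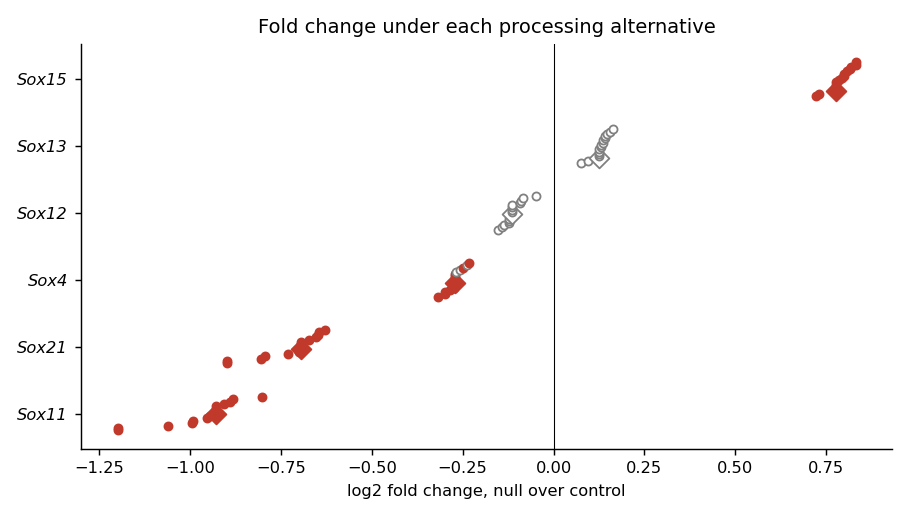
Log2 fold change, null over control, of the 6 tested members as reported (diamonds) and under each processing alternative that has a test (circles); filled red marks have an adjusted p of at most 0.05. Sox15 stays between 0.72 and 0.83 and Sox11 between -1.20 and -0.80, while Sox4, at -0.32 to -0.23, has open as well as filled circles.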

How the data were processed

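Expression was measured by sequencing of ribosomal RNA-depleted RNA in 3 Zscan10-null and 3 floxed control libraries. Cuffdiff, TopHat, FastQC and Trim Galore, with the build mm10, are listed in the submitters' processing notes without versions or roles. Each deposited file gives a value per locus for 1 library, taken as FPKM made by the authors: no header states the unit, and no source used here says whether libraries were scaled to one another. Loci were placed on GRCm38.p6 by RefSeq accession or symbol.

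Limma 3.58.1 in R 4.3.3 (mean-variance trend, no covariate) was fitted to log2(FPKM + 1) of the 11480 loci whose mean reached 1 FPKM, with Benjamini-Hochberg adjustment over all of them at 0.05, and was tested on simulated data. Fold changes on this scale understate those of low genes. Fragments were read as the smallest whole numbers in the proportions of FPKM times depth, with a tolerance of 0.01. Among low values of protein-coding genes, 84.0% of 1304 were whole multiples of the gene's smallest value within 0.05. Motifs were searched in the 250 bases before the start in RefSeq's promoter table.

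The members and lists were chosen with earlier results of these data known. Named were the members, other Sox genes, Zscan10, overlapping genes, the 2 loci most like each called member, and up to 4 called genes per list or, where fewer than 2 passed, the 2 highest. Not every gene taken by that rule is named. Foxk1, Gata4, Tubb3, Hand1, Esx1, Fgf4, Utf1, Pou5f1, Nanog, Pou3f1, Pou6f1, Cubn, Otx2, Zic2, Nes, Tcf7l1, Tcf7l2, Hmgb1 and Hmgb2 were named for their role or after their values were seen. So were the list genes under the minimum. Other settings tried were another pseudocount, another FPKM minimum or none, median centring or quantile normalization, no variance trend, a replicate block, subtraction of the chromosome median, and leaving out each library.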

Additional observations from a re-analysis of the deposited data

How the results depend on the processing

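Under every alternative run with a test, Sox15 stayed higher and Sox11 and Sox21 lower past the threshold, and Sox12 and Sox13 did not pass; Sox11 and Sox21 have no value with a minimum of 5 FPKM. That minimum left 4 members tested, of which 2 passed, the 2 whose groups did not overlap. With median centring or quantile normalization, 5 of 6 tested members had groups that did not overlap. As deposited it was 4, where 44.1% of all tested loci did not overlap. Leaving out 1 library gave 1697 to 2903 loci past the threshold (2894 with all libraries, 1741 without control replicate 1, 1697 without control replicate 2) and 3 or 4 members. The log2 fold change then ran from -0.32 to -0.24 for Sox4 (adjusted p 0.0270 to 0.0717), from -0.99 to -0.80 for Sox11, from -0.81 to -0.63 for Sox21 and from 0.72 to 0.82 for Sox15; fewer libraries alone also lower the power. Against its chromosome's median Sox15 was at 0.90. With the replicate number as a block 2264 loci and 4 members passed. Deviations of same-numbered libraries correlated at -0.00242, 0.108 and 0.0527, so the numbers were not taken as pairs, and the block changed no member's call. With no minimum the same 4 members passed among 18476 loci. Sox3, Sox17 and Sox18 rest on at most 16 fragments a library, which limits any statement on them.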

Other observations

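Among 17 tested HMG-box genes outside the Sox family, 2 rose and 6 fell, with a median log2 fold change of -0.03. Of all tested loci, 12.8% rose and 12.4% fell. The TCF/LEF genes, which carry WNT signals to DNA through an HMG box related to that of Sox proteins, were lower in 3 of 4 cases: Lef1 was at 2.001 ± 0.398 FPKM in null and 4.13 ± 0.486 FPKM in control libraries (SD, n = 3 each, limma adjusted p = 0.0050), Tcf7 at 8.03 ± 0.639 and 10.9 ± 0.101 FPKM (0.00585), and Tcf7l1, the main repressor of the family in ES cells, at 10.7 ± 0.783 and 12.8 ± 0.573 FPKM (0.0374). Tcf7l2 did not pass (0.205). Hmgb3 was at 17.1 ± 2.14 and 24.4 ± 0.992 FPKM (0.00659), while its abundant relatives Hmgb1 and Hmgb2 did not pass (0.416 and 0.689). The list's count of called genes, 8, was 3 or 4 without null replicate 2, null replicate 3 or any control replicate.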
